A study of Mus musculus with 4 samples.

Results

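A set of 8 genes for secreted growth factors and matrix proteins was described in myeloid-gated cells of the mouse ovary at 2 ages: Tgfb1, Tgfbi, Thbs1, Fn1, Pdgfa, Pdgfb, Pdgfc and Vegfa. They were chosen by symbol as genes known for fibrosis and blood vessel growth, and all 8 were found among the 31053 gene rows of both count matrices. The cells were CD45+CD11b+ cells sorted from dissociated ovaries of virgin wild-type C57BL/6J mice labelled 15 months and 3 months, with no other treatment named. For each age 3 hashtag pools were joined before 1 sort and 1 single-cell 3' library, so age and library cannot be told apart. Every p-value of an age comparison below therefore sets the difference between the 2 libraries against the spread between pools inside them. None tells age from library. On the animals the sources disagree. The design text gives 2 mice to every pool, whereas the protocol gives 5 animals harvested at 14 to 17 months, with 1 pool from 1 animal, and 6 animals harvested at 2 to 3 months. The protocol does not say which pool held the single animal.

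TGF-beta 1, the product of Tgfb1, is secreted in a latent form and, once freed, drives fibroblasts to make extracellular matrix. Thrombospondin 1 can free it, and Tgfbi and fibronectin (Fn1) are matrix proteins that rise with TGF-beta signalling in many cells. The platelet-derived growth factor chains A, B and C act on receptors of fibroblasts and pericytes, and VEGF-A is the main growth signal for blood vessel endothelium. In the ovary, vessels and matrix are rebuilt in each cycle as follicles and corpora lutea form and regress, and tissue macrophages are known sources of several of these factors.

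Each kept cell was assigned to its pool by an antibody-borne hashtag of 15 bases. The hashtags are shown because they alone define the replicates, as listed in the feature table of the matrices.
B0301 (pool 1): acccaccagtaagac
B0302 (pool 2): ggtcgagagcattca
B0303 (pool 3): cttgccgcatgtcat

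After filtering, 4100 cells of the 15-month library and 2181 of the 3-month library were kept, 6281 in all, with median depths of 6949 and 7472 UMIs (counted molecules) per barcode before filtering. The libraries shared 3 barcodes, 2 of them kept. The pools held 767, 2437 and 896 cells at 15 months and 725, 479 and 977 cells at 3 months, and from 4627201 to 25840364 UMIs each. The cells formed 22 clusters. The largest that could be named by markers were macrophage-like (clusters 0, 8 and 19, 1092 cells in all), non-classical monocyte-like (559), cDC2-like (conventional dendritic cells of type 2, 536), neutrophil-like (461) and NK cell-like (410). Several clusters carried markers of cells that a CD45+CD11b+ gate is meant to leave out, among them B cell-like (265), endothelial-like (160), T cell-like (137) and theca or luteal-like cells (86), and the stromal genes Dcn, Mgp and Col1a2 led cluster 7 (286 cells). In all, 6 clusters stayed unnamed, of which the largest were cluster 1 (668 cells, led by Arg1, Spp1, Gpnmb and Ccl7, with macrophage and classical monocyte markers at close scores) and cluster 4 (526 cells, led by Ccr2, Ms4a8a and Ms4a4c). Differences between clusters are described without a test, because the clusters were drawn from the same cells, and the 8 genes were kept out of the genes used to draw them.

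**Figure D1:**
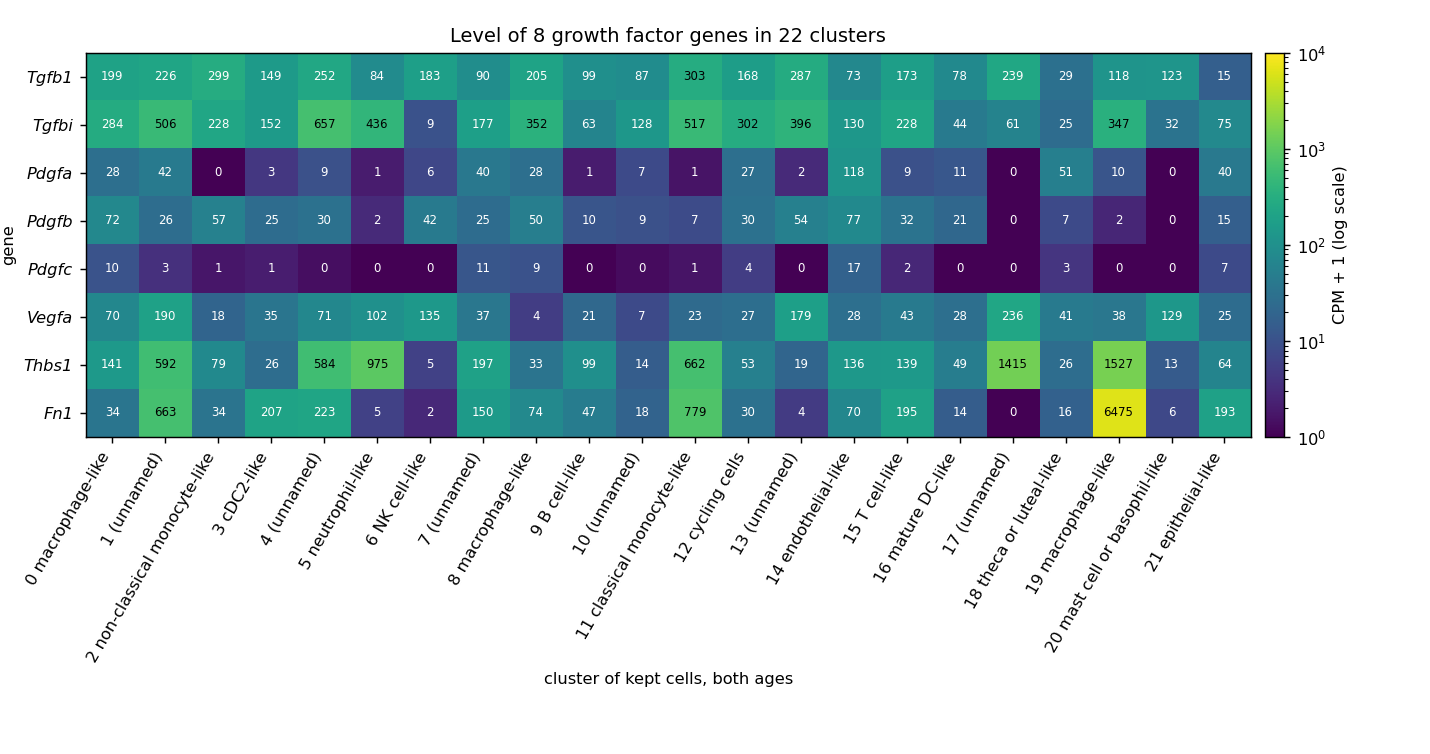
Level of the 8 genes (rows) in the 22 clusters of kept cells (columns), both ages summed, as counts per 1000000 UMIs of the cluster (CPM), with the value printed in each cell and the colour on a log scale of CPM + 1. Fn1 peaks at 6475 CPM in cluster 19, Thbs1 in clusters 19 and 17, Pdgfa, Pdgfb and Pdgfc in endothelial-like cluster 14, and Tgfb1 is spread over most clusters.

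Levels are counts per 1000000 UMIs (CPM) of a cluster or pool, summed over cells, and they were compared within a gene, not between genes. Tgfb1 was the most widely detected of the 8, with 10267 UMIs and at least 1 UMI in 61.8% of kept cells. Its highest levels were in monocytes, 303 CPM in classical monocyte-like cells and 299 CPM in non-classical monocyte-like cells. Over the pools with at least 10 cells it averaged 315 ± 42.3 CPM in classical monocyte-like cells (SD, n = 5) and 301 ± 29.8 CPM in non-classical monocyte-like cells (SD, n = 6), a difference smaller than its spread over the shared pools. Macrophage-like cluster 0 held 199 CPM, NK cell-like cells 183 CPM and T cell-like cells 173 CPM. Neutrophil-like cells (84.2 CPM), mature DC-like cells (77.8 CPM) and endothelial-like cells (73.2 CPM) were low, and theca or luteal-like (28.9 CPM) and epithelial-like cells (15.2 CPM) lowest. Ranked over the 19 clusters with at least 2 usable pools, neighbours differed by more than the spread of their differences in 2 of 18 steps, below cDC2-like cells (148 ± 13.7 CPM, n = 6) and above the last, theca or luteal-like cells. Each of these steps rested on 2 shared pools. The genes whose log2 level ran most like that of Tgfb1 over the 22 clusters were Fcer1g, the shared gamma chain of Fc receptors (Pearson r = 0.90), B2m (r = 0.88) and the adaptor gene Fyb (r = 0.87), among 6456 genes with at least 50 CPM in a cluster.

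Tgfbi, a secreted integrin-binding matrix protein named for its induction by TGF-beta, was the most counted of the 8 (17171 UMIs, 55.6% of cells). Among its highest levels were 657 CPM in cluster 4, 517 CPM in classical monocyte-like cells, 506 CPM in cluster 1 and 436 CPM in neutrophil-like cells. Over pools, cluster 13 averaged 413 ± 48.4 CPM (SD, n = 2), beside 408 ± 167 CPM in neutrophil-like cells (SD, n = 6). Macrophage-like clusters 8, 19 and 0 held 352, 347 and 284 CPM, and non-classical monocyte-like cells 228 CPM. NK cell-like cells held 9.3 CPM. Between pools it varied widely, averaging 554 ± 232 CPM in cluster 4 and 428 ± 168 CPM in cluster 1 (SD, n = 6 each), and in the ranked clusters only 3 of 18 steps, all among the lowest levels, went beyond the spread. The lower of these steps rested on 2 shared pools. With every cell thinned to 1000 UMIs, 34.6% of cluster 1 cells and 22.8% of macrophage-like cluster 0 cells had a Tgfbi UMI, against 0.732% of NK cell-like cells, which serve as the background (81.3%, 77.1% and 1.95% before thinning, at median depths of 11423, 9986.5 and 3532.5 UMIs). Its closest profiles were those of the interleukin 6 receptor gene Il6ra (r = 0.86), Ralb (r = 0.86) and Serpinb8 (r = 0.82).

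Fn1, which encodes fibronectin, was uneven. Of its 14949 UMIs, 38.7% lay in the 62 cells with the most, and a single cell held 210. For the sparse Pdgfc that share was 47.8%, for Pdgfa 35.0%, and for the other genes 6.96% to 20.8%. Macrophage-like cluster 19, 41 cells led by Saa3, Prg4 and Cxcl13, held 6475 CPM with a UMI in 41 of 41 cells, and 25.4% of all Fn1 UMIs. Its pools read 7697, 5952 and 6036 CPM at 15 months, from 11, 22 and 2 cells, and 7180 and 5509 CPM in pools 2 and 3 at 3 months, from 4 and 2 cells, while pool 1 had no such cell. The values of this cluster thus lay in 1 range at both ages, and its cells were few. Macrophage-like clusters 0 and 8 held only 34.3 and 74.1 CPM.
The other cells with much Fn1 were classical monocyte-like cells (779 CPM), cluster 1 (663 CPM, 39.0% of all Fn1 UMIs), cluster 4 (223 CPM) and cDC2-like cells (207 CPM), ahead of T cell-like (195 CPM) and epithelial-like cells (193 CPM). T cell-like levels spread from 6.51 to 395 CPM over the 3 pools with at least 10 cells. The epithelial-like level came from 140 UMIs in 14 cells of 15-month pool 2. Thinned to 1000 UMIs, 95.1% of cluster 19 cells and 44.8% of classical monocyte-like cells had an Fn1 UMI, against 0.244% of NK cell-like cells (100%, 80.2% and 0.732% before thinning, at median depths of 13887, 7345 and 3532.5 UMIs). Of the 18 steps in its ranked levels, 2 went beyond the spread, below cluster 19 and below cluster 7 (153 ± 70.3 CPM, n = 6). The first of these rested on 2 shared pools. Neutrophil-like cells were near the NK cell-like background at 4.96 CPM, where NK cell-like cells had 1.86 CPM. Cluster 17, a group of 122 cells led by Il1f9, Acod1 and Slc7a11, had no Fn1 UMI at all, which allows up to 10.1 CPM. This cluster scored highest for neutrophil markers (2.694, against 0.2276 for the next type). No neutrophil marker was among its leading genes, and it stayed unnamed. The profiles most like that of Fn1 were those of Plcb1 (r = 0.81), Ms4a8a (r = 0.80) and the lysozyme gene Lyz1 (r = 0.79).

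Thbs1 (thrombospondin 1, a matricellular protein that can free latent TGF-beta and restrains vessel growth through Cd36 and Cd47) had 14789 UMIs in 31.5% of cells. It shared its top cluster with Fn1, 1527 CPM in cluster 19, but was also high in cluster 17 (1415 CPM) and in neutrophil-like cells (975 CPM), where Fn1 was near 0. Classical monocyte-like cells, cluster 1 and cluster 4 followed at 662, 592 and 584 CPM. Macrophage-like clusters 0 and 8 held 141 and 33.0 CPM, and NK cell-like cells 4.96 CPM. In the ranked levels, which leave out cluster 17 for want of 2 pools with at least 10 cells, the step below cluster 19 alone went beyond the spread. It was a step to neutrophil-like cells and rested on 2 shared pools, both at 15 months. Thinned to 1000 UMIs, 73.2% of cluster 19 cells and 52.5% of cluster 17 cells had a UMI, against 0.488% of NK cell-like cells (97.6%, 61.5% and 1.22% before thinning, at median depths of 13887, 2387 and 3532.5 UMIs). Of the 122 cells of cluster 17, 105 came from 15-month pool 2. The 2 pools of that cluster with the most cells, 15-month pool 2 and 3-month pool 1 (9 cells), read 1262 and 2588 CPM. The closest profiles were those of the myeloid surface genes Clec4d (r = 0.85), Bst1 (r = 0.85) and Cd14 (r = 0.82).

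**Figure D2:**
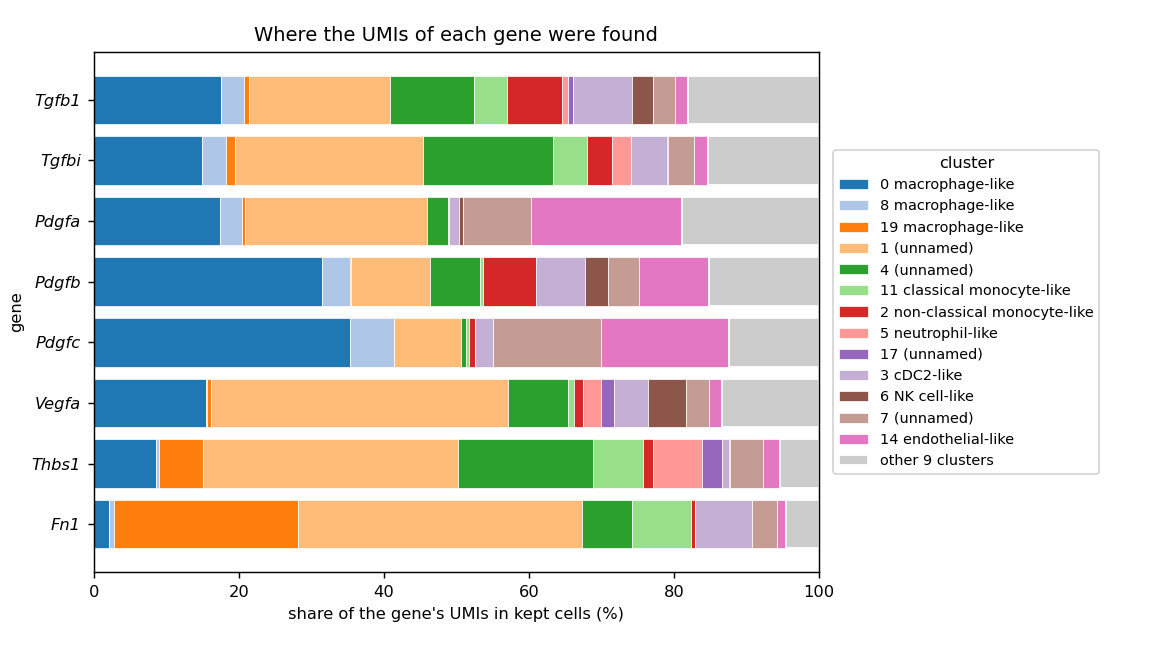
Share of the kept UMIs of each gene (rows) that fell in each cluster, in percent, with 13 clusters coloured and the other 9 in grey. Cluster 1 carries 41% of Vegfa and 39.0% of Fn1 UMIs, cluster 19 carries 25.4% of Fn1 UMIs from 41 cells, and endothelial-like cluster 14 carries 20.8% of Pdgfa UMIs.

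Cluster 1 was itself mixed. At a finer resolution of 1.0 the cluster parted into 390 cells led by Arg1, Ccl7 and Fn1 and 277 cells led by Gpnmb, Atp6v0d2 and Fabp5. The first group held 1178 CPM Fn1, 1023 CPM Thbs1, 817 CPM Tgfbi and 235 CPM Vegfa. The second held 155 CPM Fn1, 168 CPM Thbs1, 199 CPM Tgfbi and 147 CPM Vegfa. Fn1 is itself among the leading genes of the first group, so its difference is only a description of that group. Among cluster 1 cells the first group numbered 9 of 71, 142 of 232 and 15 of 41 by pool at 15 months. At 3 months it numbered 135 of 150, 85 of 130 and 4 of 44. Fn1 in cluster 1 read 266, 819 and 366 CPM in the 15-month pools and 801, 811 and 63.3 CPM in the 3-month pools. The 3 pools in which the first group was in the majority were those with the 3 highest Fn1 levels, and both ages had such pools. As Fn1 is among the leading genes of that group, this too is only a description. The part of the mix in the Fn1 levels was not tested.

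Of the platelet-derived growth factor chains, Pdgfa (1469 UMIs, 11.2% of cells) was highest in endothelial-like cells at 118 CPM, then in theca or luteal-like cells (51.4 CPM), cluster 1 (42 CPM) and cluster 7 (39.7 CPM). Macrophage-like clusters 0 and 8 held 28.2 and 28 CPM. No Pdgfa UMI was found in 559 non-classical monocyte-like cells, which allows up to 1.15 CPM, and classical monocyte-like cells had 0.647 CPM, from 1 UMI. In cluster 1 it was even over the pools, 41.4 ± 8.2 CPM (SD, n = 6). The endothelial-like cluster was mixed: at resolution 1.0 its 24 cells with epithelial markers held 420 CPM Pdgfa, its 88 cells with endothelial markers 57.6 CPM and its 48 cells with granulosa markers 50.3 CPM.

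Pdgfb (2071 UMIs, 18.6% of cells), the chain that recruits pericytes to vessels, was highest in endothelial-like cells (77.0 CPM), macrophage-like cluster 0 (72.0 CPM), non-classical monocyte-like cells (57.1 CPM) and cluster 13 (54.0 CPM). Cluster 0 alone carried 31.5% of its UMIs. Here the endothelial part of cluster 14 stood higher, at 149 CPM, than the parts with granulosa (12.8 CPM) and epithelial markers (20 CPM). Classical monocyte-like and neutrophil-like cells held 7.11 and 1.98 CPM. Cluster 19, at the top for Fn1 and Thbs1, held 1 Pdgfb UMI in 41 cells. Over pools, cluster 0 averaged 85.0 ± 29.0 CPM and endothelial-like cells 75.3 ± 35.3 CPM (SD, n = 6 each), which did not differ beyond their spread. For Pdgfa and for Pdgfb 1 of the 18 steps in the ranked levels went beyond the spread, below macrophage-like cluster 0 for Pdgfa and below cluster 13 for Pdgfb. The Pdgfb step rested on 2 shared pools. The profiles closest to that of Pdgfb were those of Rnps1 (r = 0.86), Mdfic (r = 0.85) and Dnm1l (r = 0.85).

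Pdgfc was sparse, with 249 UMIs in 192 cells. The levels were 17.0 CPM in endothelial-like cells, 10.7 CPM in cluster 7, 9.72 CPM in macrophage-like cluster 0 and 9.33 CPM in macrophage-like cluster 8, and cluster 0 carried 35.3% of the UMIs. Within cluster 14 the cells with granulosa markers held 29.9 CPM, those with epithelial markers 17.8 CPM and those with endothelial markers 6.68 CPM. Over pools the endothelial-like cluster averaged 19.7 ± 11.6 CPM, and 8.84 ± 3.77 CPM under the stricter cell filter (SD, n = 6 each). Neutrophil-like and NK cell-like cells had none, which allows up to 2.97 and 1.86 CPM. None of the 18 steps in the ranked levels went beyond the spread. Its closest profiles were those of the matrix genes Mmp2 (r = 0.89), P3h3 (r = 0.88) and Bgn (r = 0.85), and those of Pdgfa were Kdelc2 (r = 0.90), Rab13 (r = 0.89) and Gtf2h5 (r = 0.88).

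Among all pairs of the 8 genes the levels of Pdgfa and Pdgfc ran closest together over the 22 clusters (r = 0.79). The points share libraries and depth, and no p is given. Pdgfc had 249 UMIs in all and 0 in several clusters, such as NK cell-like and B cell-like cells. The correlation thus rests in part on values at the floor. Within cluster 14 the 2 genes peaked in different cells, Pdgfa in those with epithelial markers (420 CPM) and Pdgfc in those with granulosa markers (29.9 CPM). The 250 bases before their RefSeq starts in GRCm38.p6 are shown as the stretches next to the start of this pair, with GGGCGG or its reverse complement CCGCCC, the core of the GC box, in capitals. For Pdgfa, at chr5:138994945-138995194 on the minus strand, the outer of its 2 listed starts was taken, which lies inside the gene as drawn in GENCODE M21. For Pdgfc the window is chr3:81036166-81036415 on the plus strand.
Pdgfa: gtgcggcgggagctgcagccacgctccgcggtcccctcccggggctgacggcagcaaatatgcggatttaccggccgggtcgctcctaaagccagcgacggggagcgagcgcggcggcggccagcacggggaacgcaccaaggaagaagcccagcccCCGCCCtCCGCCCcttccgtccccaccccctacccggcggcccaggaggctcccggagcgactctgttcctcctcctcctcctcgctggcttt
Pdgfc: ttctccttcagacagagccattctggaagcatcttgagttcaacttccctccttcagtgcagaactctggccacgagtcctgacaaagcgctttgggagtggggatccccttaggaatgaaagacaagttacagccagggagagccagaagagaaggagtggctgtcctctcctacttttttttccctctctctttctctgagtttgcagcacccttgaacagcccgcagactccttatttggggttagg
The Pdgfa window held 2 matches on either strand and the Pdgfc window 0, where 32.7% of 32851 promoter windows of that length held at least 1. The G and C content was 72.4% for Pdgfa and 50.8% for Pdgfc. Of the 8 genes, 5 had an entry in the promoter table, and Fn1, Thbs1 and Pdgfb had none. On GRCm38 the gene Pdgfa spans 138976014 to 138997370 of chromosome 5 (minus strand) and Pdgfc 81036416 to 81214040 of chromosome 3 (plus strand).

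Vegfa (4081 UMIs, 21.0% of cells) had a profile of its own, and no other of the 8 genes ran closely with it. Its levels were 236 CPM in cluster 17, 190 CPM in cluster 1, 179 CPM in cluster 13, 135 CPM in NK cell-like, 129 CPM in mast cell or basophil-like and 102 CPM in neutrophil-like cells. Cluster 1 carried 41% of its UMIs. Of the 18 steps in the ranked levels, which leave out cluster 17, 1 went beyond the spread, below cluster 13 and over 2 shared pools. Cluster 13, 162 cells led by Lipg, Fcrl5 and Fcgr4, had 132 of its cells in 15-month pool 3. The macrophage-like clusters differed: cluster 0 held 69.6 CPM and cluster 8, led by Ccl8, Cbr2 and Pf4, held 4.36 CPM, from 7 UMIs in 265 cells. Thinned to 1000 UMIs, 14.1% of cluster 1 cells had a Vegfa UMI and 0.377% of cluster 8 cells (54.2% and 1.89% before thinning, at median depths of 11423 and 4400 UMIs). The closest profiles were those of the chemokine gene Ccl3 (r = 0.73), the RNase gene Zc3h12a (r = 0.73) and the transcription factor gene Maff (r = 0.71).

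Age was compared, 15 months over 3 months, in the 10 classes with at least 10 kept cells in all 6 pools, with edgeR's quasi-likelihood test on summed counts and Benjamini-Hochberg adjustment over all genes of the class at a threshold of 0.05. Of 80 gene and class pairs 56 passed the filter on low counts: Tgfb1 in 10 classes, Tgfbi, Pdgfb and Thbs1 in 9 each, Vegfa in 8, Fn1 in 6, Pdgfa in 4 and Pdgfc in 1. Of these, 1 pair passed the threshold, Fn1 in cDC2-like cells, where 0.177% of the 5073 genes tested did so and 0.0788% were higher. Of the 56 pairs 7 had an unadjusted p under 0.05, where 10.4% of all 50056 tests in these classes did, and 37 had a positive log2 ratio, where 50.2% of all tests did. In 5 pairs the 15-month pools all lay above the 3-month pools and in 2 all below, where 10.1% and 7% of all tests in these classes did so.

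**Figure D3:**
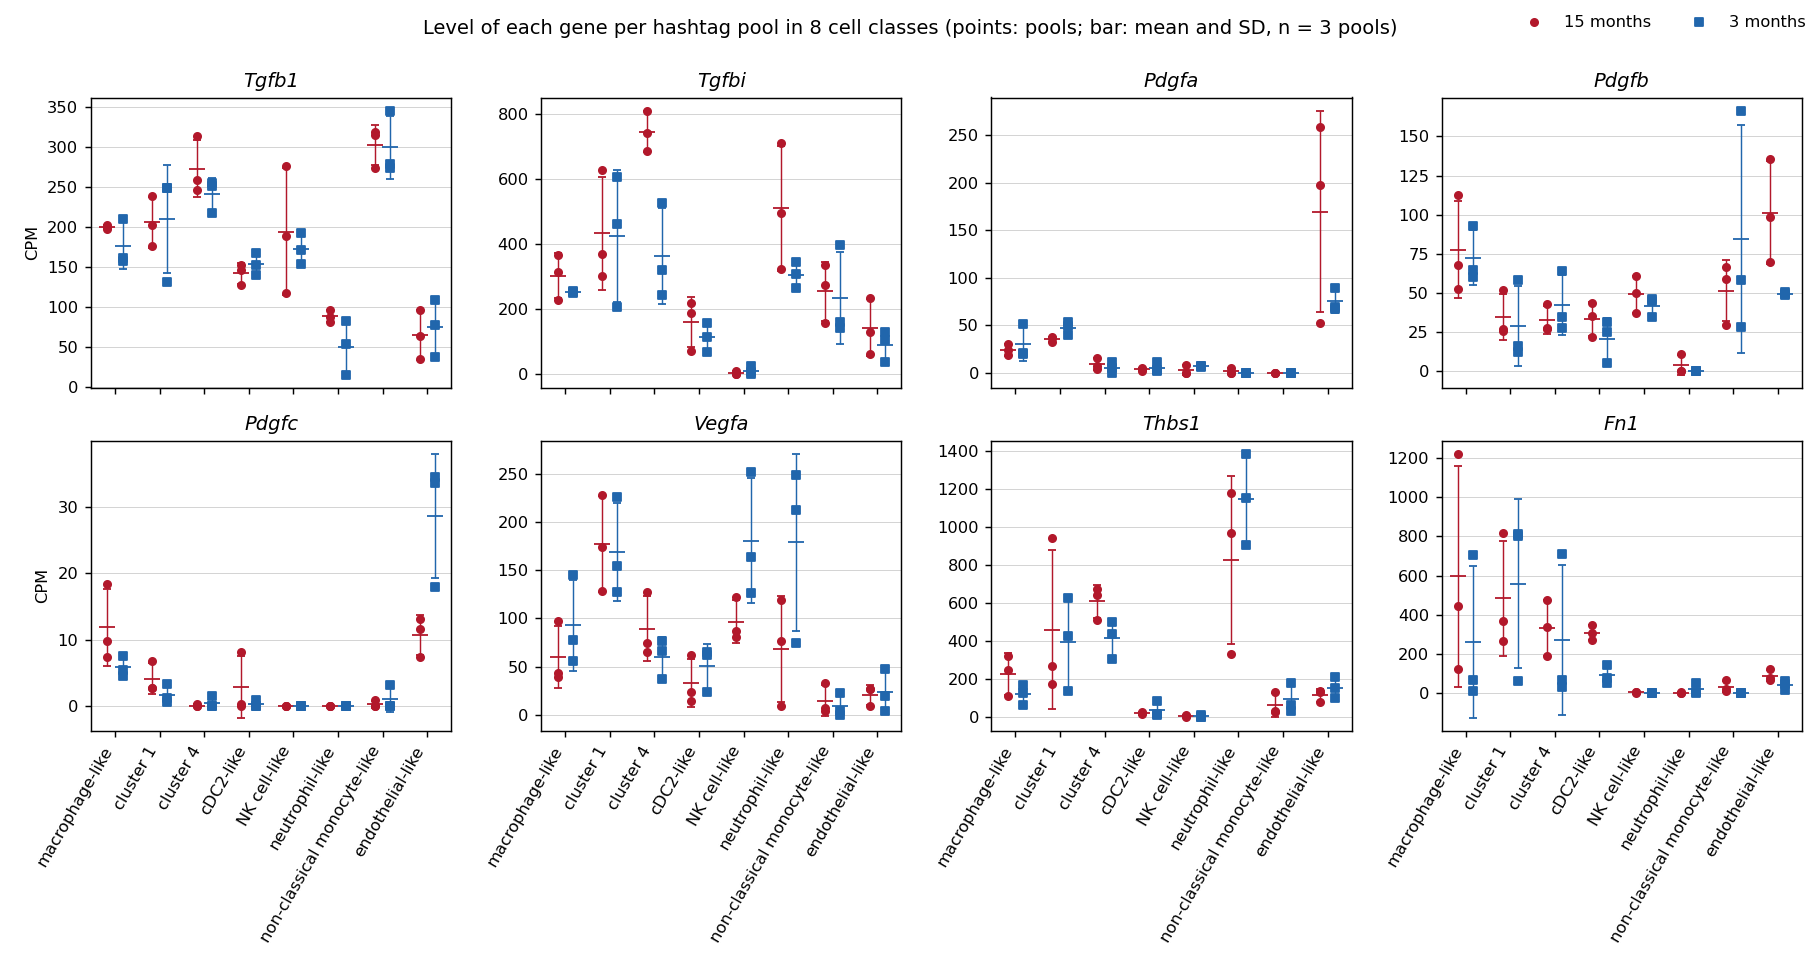
CPM of each gene (panels) in each of 3 hashtag pools per age, for 8 tested cell classes, with 15 months (circles) left of 3 months (squares) and bars for the mean and SD of 3 pools. Fn1 in cDC2-like cells reads 270 to 348 CPM at 15 months and 54.8 to 145 CPM at 3 months, whereas for most genes and classes the pools of the 2 ages overlap.

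In cDC2-like cells Fn1 read 310, 270 and 348 CPM in the 15-month pools, against 54.8, 145 and 78.3 CPM in the 3-month pools. All 15-month pools were higher than all 3-month pools, as for 14.1% of the genes tested in this class. The log2 ratio was 1.65 ± 0.26 (SE), with an adjusted p of 0.0218 by edgeR (n = 3 pools each). The call rested on few cells. Of 536 cDC2-like cells 56 had an Fn1 UMI, and 21 with at least 10 UMIs held 1084 of the 1157 UMIs (93.7%). By pool these were 3 of 41, 8 of 216 and 4 of 44 cells at 15 months. At 3 months they were 1 of 54, 2 of 55 and 3 of 126.
At resolution 1.0, 12 of the 21 cells stayed with the cDC2-like cells and 8 joined the macrophage-like cluster led by Saa3 and Prg4, none of 3 staying in 15-month pool 1. Fn1 in cDC2-like cells then read 5.42, 89.5 and 283 CPM at 15 months and 48.1, 53.5 and 45.6 CPM at 3 months, with overlap (log2 ratio 1.26 ± 0.62, adjusted p 0.489 by edgeR). The call was also lost without 3-month pool 1 (log2 1.38, adjusted p 0.0557) or pool 3 (1.56, 0.0594), with HTODemux hashtag calls (1.08, 0.152), with a stricter cell filter (1.83, 0.0986) and with the 8 genes allowed into the clustering (1.27, 0.486). With HTODemux calls and the stricter filter the pools of the 2 ages still did not overlap. Summed macrophage markers in cDC2-like cells were 3148 to 4943 CPM at 15 months and 2722 to 3652 CPM at 3 months (10 of 10 markers seen), and summed classical monocyte markers 661 to 1088 and 566 to 650 CPM (7 and 5 of 8 seen). The cDC2 markers themselves summed to 2052 to 2465 CPM at 15 months and 2717 to 3268 CPM at 3 months (7 of 7 seen), and erythroid markers to 21.6 to 26.7 CPM and 439 to 3677 CPM (4 and 5 of 7 seen), both without overlap. The part of these cells in the Fn1 difference, beyond the values above, was not tested.

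**Figure D4:**
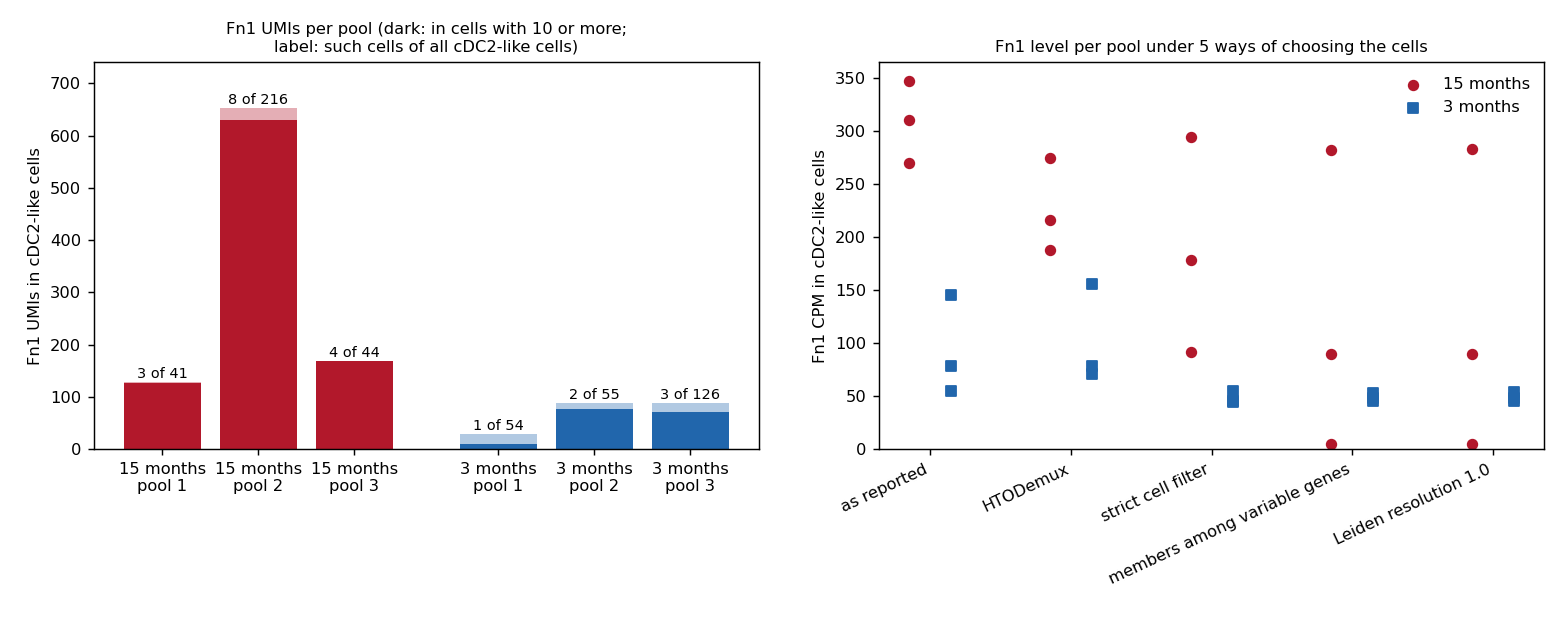
Left, Fn1 UMIs in cDC2-like cells per pool (bars, 15 months in red and 3 months in blue), with the dark part from cells with at least 10 Fn1 UMIs and the number of such cells above each bar. Right, Fn1 CPM per pool under 5 ways of choosing the cells, in which the 15-month pools spread from 5.42 to 283 CPM at Leiden resolution 1.0.

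In macrophage-like cells no member passed the threshold, where 0.0769% of 7806 genes did. Fn1 read 1220, 444 and 124 CPM at 15 months, against 10.4, 706 and 66.9 CPM at 3 months. The ages overlapped, and the ratio was wide (log2 1.21 ± 1.04 SE, adjusted p 0.786 by edgeR). Leaving out 1 pool moved it between 0.21, without 15-month pool 1, and 3.68, without 3-month pool 2 (adjusted p 0.254), with 0.63 and 0.71 without 3-month pools 1 and 3. Most Fn1 came from few cells: 53 of 1092 macrophage-like cells with at least 10 Fn1 UMIs held 96.2% of the UMIs. Without cluster 19, Fn1 read 25.6, 58.2 and 47.0 CPM at 15 months and 10.4, 44.1 and 4.91 CPM at 3 months (log2 1.71 ± 0.50, adjusted p 0.288).
Thbs1 read 322, 246 and 108 CPM at 15 months and 62.4, 124 and 166 CPM at 3 months in macrophage-like cells, with overlap (log2 0.83 ± 0.38, adjusted p 0.543). Without cluster 19 the 15-month pools read 30.7, 160 and 96.9 CPM and the 3-month pools 62.4, 54.2 and 144 CPM, and the log2 ratio was 0.06 ± 0.41. Leaving out these 41 cells thus brought the Thbs1 ratio near 0, while the Fn1 ratio stayed positive at CPM levels well below those of the whole class.
Vegfa read 97.3, 43.3 and 39.0 CPM at 15 months and 55.5, 146 and 77.1 CPM at 3 months (log2 -0.73 ± 0.37, adjusted p 0.585). Tgfb1 read 202, 198 and 201 CPM at 15 months and 157, 162 and 210 CPM at 3 months (log2 0.10 ± 0.15, adjusted p 0.906). Tgfbi (log2 0.20 ± 0.17), Pdgfa (-0.14 ± 0.33), Pdgfb (-0.05 ± 0.28) and Pdgfc (0.68 ± 0.42) overlapped between the ages as well. Hemoglobin and other erythroid markers summed to 21.8 to 31.4 CPM in the 15-month pools of this class and to 547 to 623 CPM in the 3-month pools, and their part in these ratios was not tested.

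**Figure D5:**
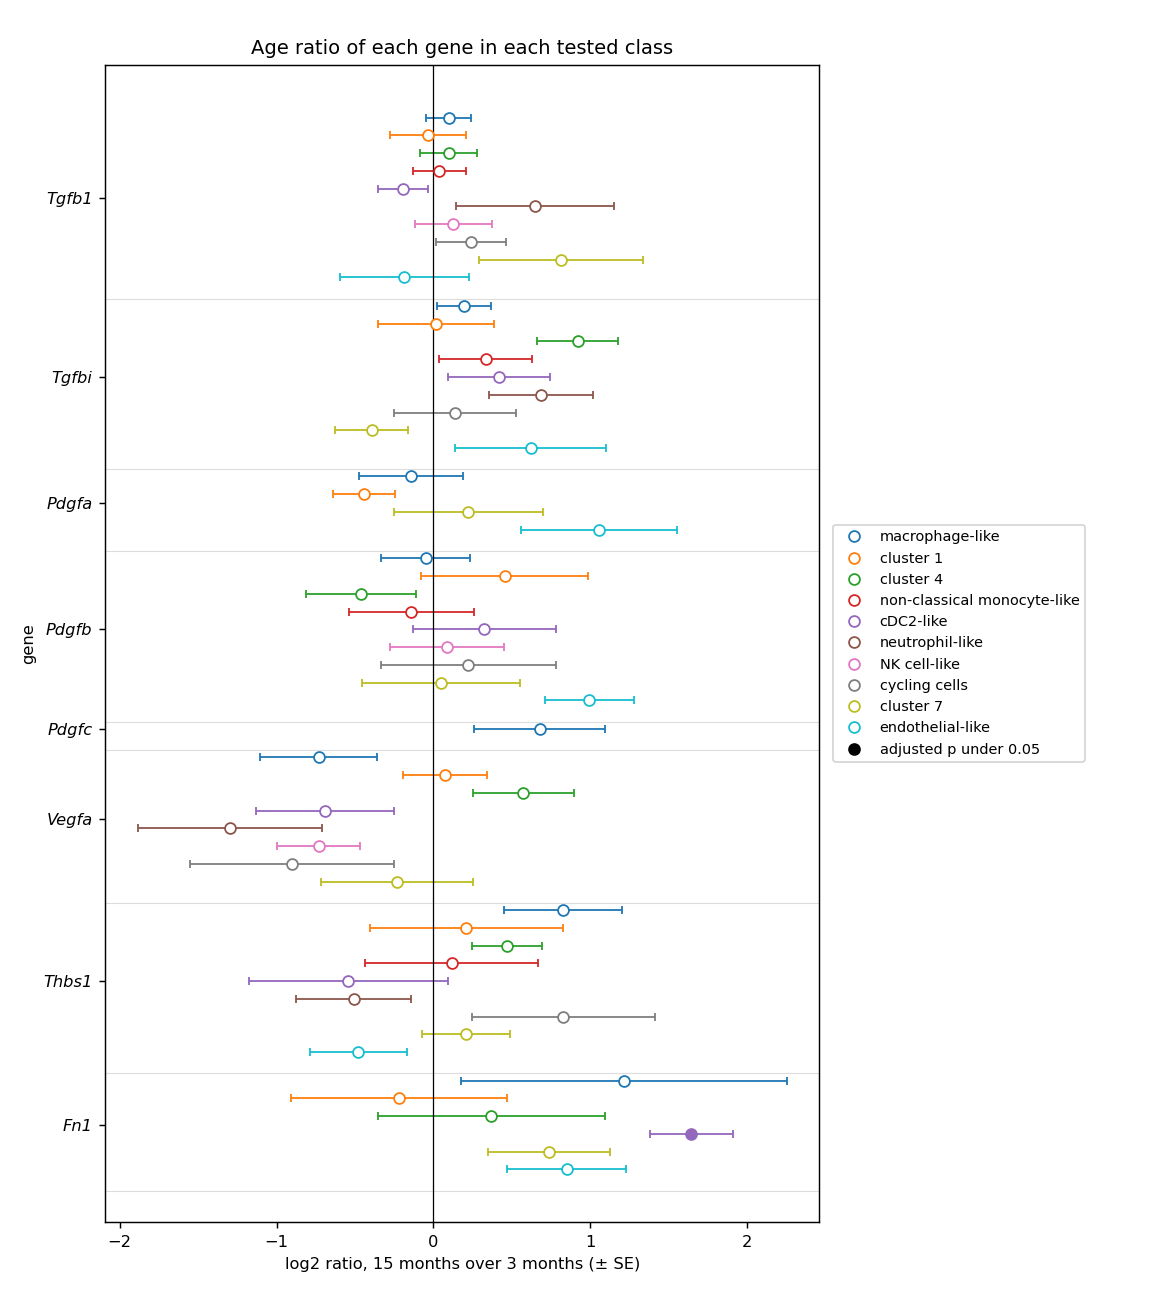
Log2 ratio of 15 months over 3 months (x axis, points, with SE bars, edgeR on 3 pools each) for the 56 pairs of a gene (rows) and a tested class (colours) past the filter on low counts. The only filled point, with an adjusted p under 0.05, is Fn1 in cDC2-like cells at 1.65.

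In cluster 4 the pools of the 2 ages did not overlap for Tgfbi and Thbs1, although neither passed the threshold, which 0.153% of 4580 genes did. Tgfbi read 741, 685 and 809 CPM at 15 months, against 320, 244 and 527 CPM at 3 months (log2 0.92 ± 0.26, adjusted p 0.527 by edgeR). Thbs1 read 675, 639 and 508 CPM at 15 months and 435, 305 and 499 CPM at 3 months (log2 0.47 ± 0.22, adjusted p 0.814). All 15-month pools were higher for both genes, and 8.58% of all genes tested in this cluster were likewise higher with no overlap. The summed neutrophil markers of cluster 4 ran from 344 to 704 CPM at 15 months and from 48.9 to 7300.5 CPM at 3 months, and their part was not tested. Fn1 in cluster 4 read 473, 189 and 340 CPM at 15 months and 70.3, 709 and 34.2 CPM at 3 months, with overlap (log2 0.37 ± 0.72, adjusted p 0.998). Its 3-month pool 2 stood above all others, and without that pool the log2 ratio was 2.75 ± 0.44 (adjusted p 0.0277). In that fit 10 of 5812 genes passed, against 7 of 4580 with all pools.

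In endothelial-like cells, a class of 16 to 47 cells a pool, Pdgfb read 69.6, 98.5 and 136 CPM at 15 months, against 50.4, 49.3 and 48.6 CPM at 3 months. No pool overlapped, but the adjusted p was 0.162 (log2 1.00 ± 0.29, edgeR), and 11.2% of the genes tested here were higher without overlap while 0.0539% passed the threshold. Fn1 parted in the same way, 125, 70.6 and 76.5 CPM at 15 months and 50.4, 19.7 and 61.4 CPM at 3 months (log2 0.85 ± 0.38, adjusted p 0.367). Pdgfa read 197, 52.5 and 259 CPM at 15 months and 67.2, 69.0 and 89.5 CPM at 3 months, with overlap (log2 1.06 ± 0.50, adjusted p 0.390). The make-up of the class differed between pools: cells with granulosa markers were 4, 9 and 1 in the 15-month pools and 7, 7 and 20 in the 3-month pools. Those with epithelial markers, where Pdgfa was highest, were 7, 3 and 8 in the 15-month pools and 1, 0 and 5 in the 3-month pools. Summed granulosa markers were 353 to 1349 CPM at 15 months and 1148 to 2423 CPM at 3 months. Summed endothelial markers were 1529 to 2945 CPM at 15 months and 1209 to 1527 CPM at 3 months, and pericyte or smooth muscle markers 163 to 565 CPM and 59.1 to 160 CPM, both without overlap. Without 15-month pool 2 Pdgfa alone of the 3 passed (log2 1.505 ± 0.23, adjusted p 0.0161). In that fit 172 of 5831 genes passed, against 3 of 5565 with all pools. The part of this make-up in the ratios was not tested.

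The log2 ratio of Vegfa was negative in NK cell-like and neutrophil-like cells, without a call. In NK cell-like cells it read 87.0, 123 and 80.9 CPM at 15 months, against 127, 253 and 164 CPM at 3 months. All 15-month pools were lower, with a log2 ratio of -0.73 ± 0.26 and an adjusted p of 0.236 by edgeR, in a class where 0.619% of 3233 genes passed the threshold and 9.09% were lower without overlap. Summed macrophage markers in NK cell-like cells were 348 to 687 CPM at 15 months and 134 to 4573 CPM at 3 months, and their part was not tested. In neutrophil-like cells it read 76.3, 119 and 9.26 CPM at 15 months and 249, 213 and 74.8 CPM at 3 months (log2 -1.30 ± 0.59, adjusted p 0.852, where 0.263% of 1902 genes passed). There 3-month pool 3 lay below 2 of the 15-month pools. In cluster 1 its log2 ratio was near 0 (0.07 ± 0.27, adjusted p 0.951), and in cluster 4 the ratio was positive (0.57 ± 0.32, adjusted p 0.836).

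In cluster 1, the main source of Vegfa and Fn1 UMIs, no member passed the threshold, which 0.189% of 7418 genes did. Pdgfa was lower in all 15-month pools, 32.4, 37.3 and 36.4 CPM, against 49.8, 53.1 and 39.4 CPM in the 3-month pools (log2 -0.44 ± 0.20, adjusted p 0.468 by edgeR), and 7.91% of the genes tested were lower without overlap. Thbs1 read 267, 940 and 171 CPM at 15 months and 623, 424 and 137 CPM at 3 months, and Tgfbi 300.1, 627 and 369 CPM at 15 months and 605, 461 and 205 CPM at 3 months. Both overlapped widely. In non-classical monocyte-like cells (0.422% of 3792 genes called), neutrophil-like cells, cycling cells (0.0218% of 4586) and cluster 7 (0.0164% of 6101) no member passed either. In these 4 classes Fn1 passed the filter in cluster 7 alone, where it read 219, 115 and 238 CPM at 15 months and 185, 86.6 and 74.2 CPM at 3 months (log2 0.74 ± 0.39, adjusted p 0.564).

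The other pairs past the filter on low counts overlapped between the ages, and none passed by edgeR. In cDC2-like cells the log2 ratios were -0.19 ± 0.16 for Tgfb1, 0.42 ± 0.33 for Tgfbi, 0.33 ± 0.46 for Pdgfb, -0.69 ± 0.44 for Vegfa and -0.54 ± 0.63 for Thbs1. NK cell-like cells had 0.13 ± 0.25 for Tgfb1 and 0.09 ± 0.37 for Pdgfb. Neutrophil-like cells had 0.65 ± 0.50 for Tgfb1, 0.69 ± 0.33 for Tgfbi and -0.51 ± 0.37 for Thbs1. The 15-month pools of neutrophil-like cells read 965, 1179 and 329 CPM Thbs1, against 1380, 905 and 1152 CPM in the 3-month pools, so the lowest value was that of 15-month pool 3. Non-classical monocyte-like cells, had ratios of 0.04 ± 0.17 for Tgfb1, 0.33 ± 0.30 for Tgfbi, -0.14 ± 0.40 for Pdgfb and 0.12 ± 0.55 for Thbs1. Their Tgfb1 read 274, 319 and 316 CPM at 15 months and 274, 346 and 279 CPM at 3 months, in 1 range. Cycling cells had 0.24 ± 0.22 for Tgfb1, 0.14 ± 0.39 for Tgfbi, 0.22 ± 0.56 for Pdgfb, -0.90 ± 0.65 for Vegfa and 0.83 ± 0.58 for Thbs1. Cluster 7 had 0.81 ± 0.52 for Tgfb1, -0.39 ± 0.23 for Tgfbi, 0.22 ± 0.47 for Pdgfa, 0.05 ± 0.50 for Pdgfb, -0.23 ± 0.49 for Vegfa and 0.21 ± 0.28 for Thbs1. Endothelial-like cells had -0.18 ± 0.41 for Tgfb1, 0.62 ± 0.48 for Tgfbi and -0.48 ± 0.31 for Thbs1. Cluster 1 had -0.03 ± 0.24 for Tgfb1 and 0.46 ± 0.53 for Pdgfb, and cluster 4 had 0.10 ± 0.18 for Tgfb1 and -0.46 ± 0.35 for Pdgfb.

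Classical monocyte-like cells were not tested, because 1 of the 3-month pools held 9 of them. Their Fn1 read 1098, 696 and 1024 CPM at 15 months, against 549, 599 and 108 CPM at 3 months, the last from 6 UMIs. All 15-month pools were higher, as for 9.54% of the 7547 genes with at least 10 UMIs in these cells. Thbs1 read 284, 847 and 579 CPM at 15 months and 437, 699 and 684 CPM at 3 months, with overlap.

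Summed over all kept cells, none of the 8 genes passed the threshold by edgeR or by DESeq2 (0.224% of 12028 genes passed by edgeR), and 0 of 8 had an unadjusted p under 0.05 by edgeR, where 20.1% of the genes did. The log2 ratios ran from -0.46 ± 0.25 for Vegfa to 0.25 ± 0.22 for Pdgfb and 0.25 ± 0.26 for Pdgfc. Fn1 varied widely between pools of both ages, with 367, 288 and 164 CPM at 15 months and 267, 432 and 56.7 CPM at 3 months (log2 -0.00122 ± 0.61). These sums mix level with the make-up of the cells. Of the class shares, that of B cell-like cells passed its test, with 7.08 ± 2.65% of 15-month cells and 0.907 ± 0.311% of 3-month cells (SD over 3 pools, adjusted p 0.0183 by edgeR on cell numbers). That call was lost in 4 of 6 fits without 1 pool, those without 15-month pool 1 (adjusted p 0.0620) or 3-month pool 1 (0.0876), pool 2 (0.115) or pool 3 (0.0778), while the log2 ratio of the share ran from 2.66 to 3.16 in these fits, against 2.94 with all pools. A two-sided exact permutation test of the B cell-like share gave p = 0.1, the smallest value possible with 3 pools an age. Cluster 1, which held the most Vegfa UMIs, made up 7.78 ± 2.78% at 15 months and 17.4 ± 11.7% at 3 months, which did not pass (adjusted p 0.331 by edgeR). Whether the age ratio of a member differed between macrophage-like cells and another class was tested as an interaction in 65 pairs over 9 classes. None passed the threshold by edgeR, which 0.0417% of all 67110 tests in these classes did. An unadjusted p under 0.05 was found for 7 pairs and for 5.56% of all tests. The 4 smallest p belonged to Vegfa in cluster 4 (difference of log2 ratios 1.40 ± 0.34, adjusted p 0.644), Pdgfc in endothelial-like cells (-2.01 ± 0.66, adjusted p 0.713), Thbs1 in neutrophil-like cells (-1.08 ± 0.42, adjusted p 0.426) and Tgfbi in cluster 4 (0.76 ± 0.28, adjusted p 1), each as the named class minus macrophage-like cells. Pdgfc did not pass the filter on low counts in the endothelial-like class fit. Its UMIs there were 4, 8 and 3 at 15 months and 8, 7 and 14 at 3 months. The part of its cells with granulosa markers, where Pdgfc was highest, was not tested. Without 3-month pool 2, Thbs1 in neutrophil-like cells passed (-1.48 ± 0.36, adjusted p 0.0156). With all pools 14 of 5836 genes passed in that comparison, and the count without this pool is not given. The macrophage-like Thbs1 ratio was 0.83, and 0.06 without the 41 cells of cluster 19, whose part here was not tested.

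A further 9 lists of partner genes were set beside the 8 genes, covering their latency factors, receptors, targets and related growth factors. In macrophage-like cells none of their tested members passed the threshold, where 0.0769% of 7806 genes did. The genes of TGF-beta latency and activation had the highest median, with 6 of 13 tested, 5 of them with a positive ratio and a median log2 ratio of 0.66, against -0.00196 over all 7806 genes. Their smallest p belonged to Nrros, which tethers latent TGF-beta to myeloid cells, at 139 ± 20.5 CPM at 15 months and 198 ± 16.7 CPM at 3 months (SD, n = 3 each, log2 -0.58, adjusted p 0.322 by edgeR), the member that ran against the others. Itgav, an integrin chain that binds latent TGF-beta and fibronectin, read 82.4 ± 18.5 CPM at 15 months and 42.3 ± 9.2 CPM at 3 months (log2 0.84, adjusted p 0.322). The VEGF co-receptor gene Nrp1 read 174 ± 9.4 and 116 ± 21.8 CPM (log2 0.52, adjusted p 0.371). The thrombospondin receptor gene Lrp1 read 265 ± 47.4 CPM at 15 months and 181 ± 5.87 CPM at 3 months (log2 0.48, adjusted p 0.410). The smallest p of the other lists belonged to Hilpda, induced by hypoxia, Pmepa1, a TGF-beta target, Grn (progranulin) and Smurf1, with log2 ratios of 0.67, 0.48, 0.34 and 0.55 and adjusted p values of 0.440, 0.440, 0.488 and 0.638. The PDGF list, with the receptors Pdgfra and Pdgfrb, had no tested member in macrophage-like cells.
Over the 10 classes 1 gene of these lists passed. Mmp14, a membrane protease that can free latent TGF-beta, read 118, 122 and 103 CPM in the 15-month pools of cluster 1, against 38.4, 44.4 and 53.1 CPM in the 3-month pools (114 ± 9.51 and 45.3 ± 7.36 CPM, SD, n = 3 each). All 15-month pools were higher, with a log2 ratio of 1.37 ± 0.19 and an adjusted p of 0.0253 by edgeR, where 0.108% of the genes tested rose. The call was lost in 5 of 6 fits that left out 1 pool, where the adjusted p ran from 0.01005 (without 3-month pool 3, the fit that kept it) to 0.291 (without 3-month pool 2), and with HTODemux calls (0.166), the stricter cell filter (0.0735) and the pool number as a block (0.0566). The log2 ratio ran from 1.24 to 1.47 in all these fits. It was 1 of 5 tested members of its list in that cluster, whose median log2 ratio was 0.02, against 0.0173 over all genes tested. Over all 10 classes, none of the 103 tested pairs of the TGF-beta receptor and Smad list or the 92 of the hypoxia list passed. Neither did any of the 51 of the TGF-beta target list or the 24 of the VEGF list. Of all 50056 tests in these classes 82 passed, so these counts do not set the lists apart from other genes.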

How the data were processed

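Ovary cells of 2 libraries, 1 per age with 3 hashtag pools each, were analysed from the deposited count matrices, whole UMI counts per gene and barcode. The file headers name Cell Ranger 4.0.0, whereas the submitters' processing notes name Cell Ranger 7.0.0, FastQC 0.11.4 and mm10. The members and gene lists were chosen with earlier results of these data known.

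A barcode was given to a pool when its top hashtag had at least 10 counts and 3 times the second. Barcodes stayed in with 500 genes or more, 1000 UMIs or more and a mitochondrial share of up to 10%. This removes doublets across pools, while those within a pool stay, and scrublet marked too few barcodes to be used. Counts were scaled to 10000 and clustered with scanpy 1.11.5 and leidenalg 0.10.2 (2000 variable genes without the 8 members, 30 components, 15 neighbours, resolution 0.6, seed 1; Python 3.11.15). A cluster was named when at least 3 markers of a type were in 20% of its cells, its mean score reached 0.5 and it led the next type by 0.25. The type also had to have at least as many markers among the leading genes of the cluster as any other type. A cluster of low depth with no such marker there stayed unnamed, and clusters led by cell cycle markers were named cycling cells. These naming limits were applied with the clusters in view.

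Counts were summed per pool and class where every pool had at least 10 cells, filtered with filterByExpr, scaled by TMM and tested with edgeR 4.0.16 in R 4.3.3 at an adjusted p of 0.05. DESeq2 1.42.0, Seurat 5.3.0 (HTODemux), other size factors, no filter, the replicate block, each pool left out, a stricter filter of 1000 genes, 2000 UMIs and 5%, and other clusterings were alternatives. On simulated macrophage-like counts of 7617 genes, 78% of 2-fold and 100% of 4-fold changes were recovered. The changes were put only into genes above a lower limit of level, with the spread usual for genes of that level. Members that varied more between pools, such as Fn1, or were sparser, such as Pdgfc, are not covered by these shares. Upper limits for a count of 0 are 3 counts, and they cover counting error only.

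The 8 members are named in the classes where they passed the filter on low counts, and by level in the clusters described. From each list it names members past the threshold, or else the 1 with the smallest p in macrophage-like cells, and for each member the 3 genes most like it over the clusters. Gene positions are from GENCODE M21 and promoters from RefSeq.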

Additional observations from a re-analysis of the deposited data

How the results depend on the processing

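Of the 80 pairs of a gene and a class, 1 was called. Without the filter on low counts 7 were called, in fits that called from 16 of 10403 genes (neutrophil-like) to 378 of 15638 (endothelial-like). For some of the 7 the pools of the 2 ages overlapped, among them Fn1, Thbs1 and Vegfa in macrophage-like cells. That Fn1 ratio had an SE of 0.165 without the filter, against 1.04 in the main fit. With the pool number as a replicate block 2 were called, the second being Vegfa in NK cell-like cells (log2 ratio -0.91 ± 0.24, adjusted p 0.0356 by edgeR). In NK cell-like cells the fit with that block called 86 of 3233 genes, against 20 in the main fit. Leaving out 1 pool gave 0 to 2. HTODemux hashtag calls, the stricter cell filter, the 8 genes among the variable genes and a Leiden resolution of 1.0 gave 0 each. Over all genes, 82 calls were made in the 50056 tests of the 10 classes. The same count was 1532 without the filter, 197 with DESeq2, 278 with the replicate block and 83 to 235 without 1 pool. Without the filter more genes were tested, such as 15238 against 7806 in macrophage-like cells. The numbers of the pools do not pair them, since same-numbered pools deviated together with r = -0.07, 0.07 and 0.102. The interaction gave 0 calls, and 0 to 1 without 1 pool. The shares of cells gave 1 call, and 0 to 4 without 1 pool. Pdgfb in endothelial-like cells averaged 75.3 CPM, but 112.5 CPM with HTODemux calls and 111.1 CPM with the stricter filter.

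The sign turned for ratios near 0 that were not called. In macrophage-like cells Pdgfa (-0.14) read 0.04743 with HTODemux calls and -0.424 to 0.271 without 1 pool. Pdgfb (-0.05) read 0.01131 without cluster 19 and -0.373 to 0.2231 without 1 pool. Over all kept cells Tgfb1 read -0.01024 with RLE size factors, -0.002695 without the filter and -0.008186 with DESeq2. Thbs1 read -0.004683 with DESeq2, -0.01192 with the replicate block and -0.1127 with HTODemux calls, and Fn1 0.3373 with the block and 0.009211 with the stricter filter. Without 1 pool the ratio over all kept cells ran from -0.07684 to 0.04322 for Tgfb1, -0.03256 to 0.3219 for Tgfbi, -0.4322 to 0.3209 for Thbs1 and -0.4792 to 0.5984 for Fn1. The cause was not tested.

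Macrophage-like cells without cluster 19 and the finer parts of cluster 1 were alternatives chosen after seeing the data. The run without doublets called by scrublet was not made, because scrublet marked 1 of 4939 and 0 of 3135 barcodes. With HTODemux calls 7 of the 10 classes could be measured, and with the stricter filter 8. Depth limits Pdgfc most: it had 249 UMIs, and passed the filter on low counts in 1 class. A p that misses the threshold with 3 pools an age does not show that the ages were alike.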
